A study of Bos taurus with 16 samples.

Results

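SIGLEC1 (ENSBTAG00000013167), CSF1 (ENSBTAG00000000283) and FUT7 (ENSBTAG00000046516) are 3 genes with a part in leukocyte function or growth, among the 44265 features counted. The counts are from 2 tissues of pre-weaned Holstein bull calves, subcutaneous fat near the tail head and the gluteus medius muscle of the rump. The 3 genes were selected on the treatment contrast of these same libraries. SIGLEC1 and CSF1 were lower in muscle of 5-HTP-supplemented calves, and FUT7 was lower in adipose tissue, each at a false discovery rate (FDR) at or under 0.20. The values of those 3 contrasts are therefore descriptions. The levels in the other tissue did not choose the genes and were tested, as were the differences between tissues of SIGLEC1 and CSF1. Those differences also use the muscle libraries that chose the genes, as the mean of both treatments, so they are not fully apart from the selection.

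The calves were 21 days old at the start and received milk replacer for 10 days with either saline (CON, 4 calves) or 90 mg/day of 5-hydroxytryptophan (5-HTP, 4 calves), the immediate precursor of serotonin. Each library came from 1 tissue of 1 calf, giving 16 libraries numbered 1 to 4 in CON and 5 to 8 in 5-HTP in each tissue. Neither tissue was sorted into cells, so RNA of leukocytes is mixed here with that of adipocytes or muscle fibres. Fewer cells of a type cannot be told apart from less RNA per cell. The total count per library ranged from 17289845 to 28649548, and 3 counts were worth 0.105 to 0.174 CPM, the unit used below, in which each count is scaled to its library total.

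SIGLEC1 encodes sialoadhesin, a lectin on the surface of some macrophages that binds sialic acid on other cells. CSF1 is macrophage colony-stimulating factor, the secreted ligand that keeps macrophages alive and dividing through its receptor CSF1R, and it is made by many cells other than leukocytes. FUT7 is a fucosyltransferase of the Golgi that completes the sialyl Lewis x sugar on leukocyte glycoproteins. This sugar is what selectins on activated endothelium bind when leukocytes leave the blood.

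Of 64 further genes listed for these roles and for the cell types of both tissues, 4 had an identifier that could be matched, all of them complement genes (C1QB, C1S, CFD and CR2). Identifiers came only from the study's lists of genes that differed with treatment. A listed gene could thus be matched only if it had been called different, and the 4 are no neutral sample of markers. The receptor CSF1R, the selectins, and the markers of adipocytes and muscle fibres in these lists were not analysed here. As a check of the tissue labels chosen after the values were seen, IGFN1, a protein of the skeletal muscle Z-disc, ranged from 1392 to 6780 CPM in muscle and from 0 to 0.304 CPM in adipose tissue. CFD, factor D or adipsin, which adipocytes secrete, ranged from 7.59 to 50.4 CPM in adipose tissue and from 1.58 to 9.30 CPM in muscle, on the scale set over all 16 libraries. No other features stood on the same merged locus as SIGLEC1, CSF1 or FUT7.

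**Figure D1:**
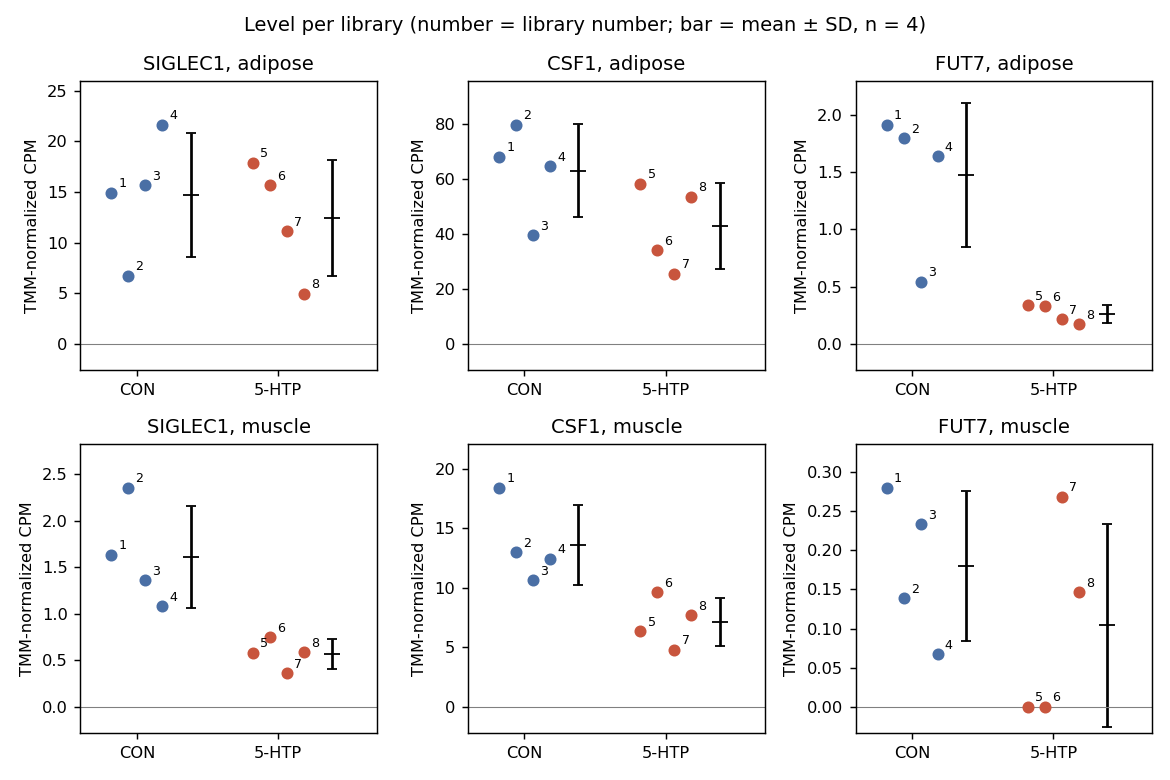
Level of SIGLEC1, CSF1 and FUT7 in TMM-normalized CPM (y axis, a separate range in each panel) in each CON and 5-HTP library of adipose tissue and muscle, with the library number beside each point and the mean ± SD (n = 4) as a bar. The 4 5-HTP points lie under the 4 CON points for SIGLEC1 and CSF1 in muscle and for FUT7 in adipose tissue, which are the contrasts that chose the genes, and the groups overlap in the other 3 panels.

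SIGLEC1, the macrophage lectin, was lower in muscle of 5-HTP-supplemented calves than of CON calves. In muscle, the 4 CON libraries held 1.64, 2.36, 1.36 and 1.08 CPM, scaled by the trimmed mean of M values (TMM) within the tissue. The 4 5-HTP libraries held 0.582, 0.745, 0.359 and 0.588 CPM. All 5-HTP values were below all CON values, and the counts behind them were 32 to 68 in CON and 8 to 18 in 5-HTP. The mean was 1.61 ± 0.549 CPM (SD, n = 4) in CON and 0.568 ± 0.159 CPM in 5-HTP, which is 2.83-fold higher in CON. The coefficient of variation among the 5-HTP libraries was 28.0%, against 26.7% from counting alone, so most of that spread has the size of counting error. The fitted logFC (log2 of 5-HTP over CON) was -1.49, with a standard error of 0.42 and a 95% interval from -2.31 to -0.67.

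CSF1, the macrophage growth factor, was also lower in muscle of 5-HTP-supplemented calves. The CON libraries of muscle held 18.4, 13.0, 10.6 and 12.4 CPM of CSF1. The 5-HTP libraries held 6.36, 9.60, 4.80 and 7.69 CPM. Again the groups did not overlap, and library 6, the highest of 5-HTP, was close under library 3, the lowest of CON. The mean was 13.6 ± 3.36 CPM in CON and 7.11 ± 2.04 CPM in 5-HTP (SD, n = 4), 1.92-fold higher in CON, with counts of 107 to 394 per library. Its fitted logFC of -0.94 had a standard error of 0.26 and a 95% interval from -1.45 to -0.42.

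In muscle, 34 of 16878 features (0.201%) passed an FDR of 0.20 in either direction by edgeR's likelihood ratio test, and 22 (0.130%) did so with a lower level in 5-HTP. Without regard to any test, 1.37% of the features had all 4 values in 5-HTP below all 4 in CON. SIGLEC1 and CSF1 are among these by their choice, and nothing is read from their number. Both stood at the edge of the threshold. SIGLEC1 was ranked 33 with an FDR of 0.188, CSF1 was ranked 34 with an FDR of 0.199 and was the last feature inside, and the next feature outside had an FDR of 0.227. With edgeR's quasi-likelihood test the FDR of each was 0.978. When 1 library was left out at a time, each of SIGLEC1 and CSF1 passed in 3 of 8 fits, while the logFC stayed between -1.65 and -1.24 for SIGLEC1 and between -1.12 and -0.76 for CSF1. SIGLEC1 did not pass without library 1, 2, 5, 7 or 8, with an FDR of 0.310, 0.540, 0.642, 0.871 and 0.599. CSF1 did not pass without the same libraries, with an FDR of 0.416, 0.350, 0.779, 0.871 and 0.566. Without any filter on low counts, the FDR of SIGLEC1 in muscle was 0.385 and that of CSF1 was 0.225.

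FUT7, the enzyme of selectin ligand synthesis, was lower in adipose tissue of 5-HTP-supplemented calves. The CON libraries of adipose tissue held 1.91, 1.80, 0.544 and 1.64 CPM of FUT7, from 43, 28, 11 and 31 counts. The 5-HTP libraries held 0.336, 0.327, 0.216 and 0.174 CPM, from 8, 8, 5 and 3 counts. CON library 3 stood well under the other CON libraries, and still above every 5-HTP library. Summed over the group, 113 counts (95% exact Poisson interval 93.1 to 136) stood in CON and 24 (15.4 to 35.7) in 5-HTP. Such intervals cover counting error only.

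The mean of FUT7 in adipose tissue was 1.47 ± 0.630 CPM in CON and 0.263 ± 0.0809 CPM in 5-HTP (SD, n = 4), 5.60-fold higher in CON. The fit gave FUT7 a logFC of -2.44 (SE 0.59) and a 95% interval from -3.59 to -1.29. The coefficient of variation in CON was 42.8%, where counting alone gives 18.8%. In 5-HTP it was 30.7%, where counting alone gives 40.8%. FUT7 passed the filter of 10 counts in 4 libraries only through the 4 CON libraries, as 0 of the 5-HTP libraries reached 10 counts.

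FUT7 was ranked 8 of 20167 features in adipose tissue, with an FDR of 0.0752 by the likelihood ratio test and 0.966 by the quasi-likelihood test. With no filter on low counts its FDR was 0.213, outside the threshold, and the logFC ranged from -2.68 to -2.24 over the fits that left out 1 library. With the filter, FUT7 did not pass without 5-HTP library 7 (FDR 0.404) or 8 (FDR 0.360), and leaving out any CON library took it under the filter itself. In this tissue 22 features (0.109%) passed an FDR of 0.20, 11 of them (0.0545%) with a lower level in 5-HTP, and in 1.0% of the features the 4 values in 5-HTP were all below those in CON. The features next to the threshold had an FDR of 0.184 inside and 0.232 outside it.

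**Figure D2:**
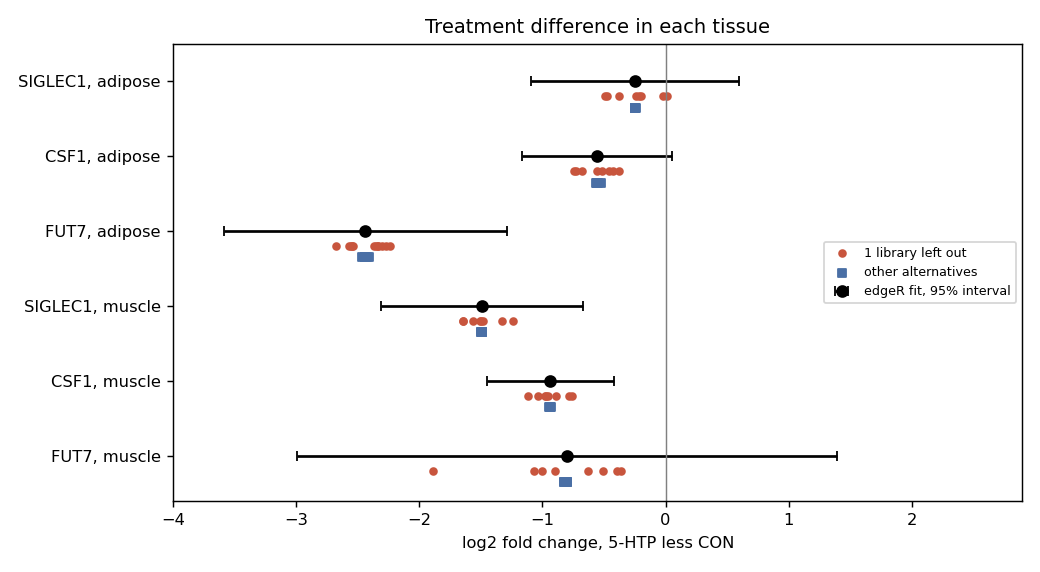
Treatment difference of each gene in each tissue as log2 fold change of 5-HTP over CON (x axis), with the 95% interval of the edgeR fit as a line, the fits without 1 library as small points and the other processing alternatives as squares. The interval crosses 0 for SIGLEC1 and CSF1 in adipose tissue and for FUT7 in muscle, which are the contrasts that did not choose the genes.

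The question in the other tissue was whether each gene differed with treatment where it had not been selected, and no such difference was detected for SIGLEC1. SIGLEC1 in adipose tissue was at 14.9, 6.74, 15.7 and 21.6 CPM in CON and at 17.9, 15.7, 11.1 and 4.98 CPM in 5-HTP. The groups overlapped almost fully, with the highest value in CON library 4 and the lowest in 5-HTP library 8. The means were 14.7 ± 6.12 and 12.4 ± 5.71 CPM (SD, n = 4). The logFC was -0.25 (SE 0.43, edgeR likelihood ratio test FDR 0.999), and an exact two-sided permutation test over calves gave p = 0.6. Its 95% interval, from -1.09 to 0.60, holds both a fall to 0.468 of the CON level and a rise by 1.52-fold, and without 5-HTP library 8 the logFC was 0.01. The groups hold 86 to 427 counts per library, and the coefficient of variation was 41.5% in CON and 46.0% in 5-HTP, where counting alone gives 5.85% and 5.89%.

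CSF1 in adipose tissue was lower on average in 5-HTP, by less than the spread among calves allows to be called. CON libraries held 68.3, 79.9, 39.7 and 64.7 CPM, and 5-HTP libraries held 58.5, 34.1, 25.7 and 53.6 CPM. Of the 5-HTP libraries, 2 of 4 were below the lowest CON library, and the other two lay within the CON range. The means were 63.1 ± 16.9 and 43.0 ± 15.6 CPM (SD, n = 4). A logFC of -0.56 was fitted (SE 0.31, 95% interval -1.17 to 0.06). It had an FDR of 0.999 by the likelihood ratio test, an unadjusted p of 0.0756 in that fit, and p = 0.143 by the exact two-sided permutation test, where the smallest p that 4 against 4 allows is 0.0286. The logFC of CSF1 was below 0 in all 14 alternatives tried, from -0.74 to -0.37, and passed the threshold in 0 of them.

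FUT7 in muscle was at the limit of what these libraries can show. The CON libraries held 6, 4, 6 and 2 counts and the 5-HTP libraries 0, 0, 6 and 3 counts, or 0.281, 0.139, 0.234 and 0.0674 CPM against 0, 0, 0.269 and 0.147 CPM. A count of 0 in a library allows up to 3 counts. The sums were 18 counts (10.7 to 28.4) in CON and 9 (4.12 to 17.1) in 5-HTP. No library reached the 10 counts of the filter, so FUT7 was not among the features tested in muscle. In a fit with no filter its logFC was -0.80 (SE 1.12, 95% interval -2.99 to 1.40, edgeR FDR 0.933), and the exact permutation test gave p = 0.343. A difference was not detectable at this depth, and the interval holds the fitted value of FUT7 in adipose tissue.

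Set side by side, the logFC of SIGLEC1 was -0.25 in adipose tissue and -1.49 in muscle, that of CSF1 -0.56 and -0.94, and that of FUT7 -2.44 and -0.80. The difference between the tissues (muscle less adipose) was -1.25 (SE 0.61) for SIGLEC1, -0.39 (SE 0.41) for CSF1 and 1.59 (SE 1.06) for FUT7. These differences are given with no test, since one side of each was the contrast that chose the gene.

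**Figure D3:**
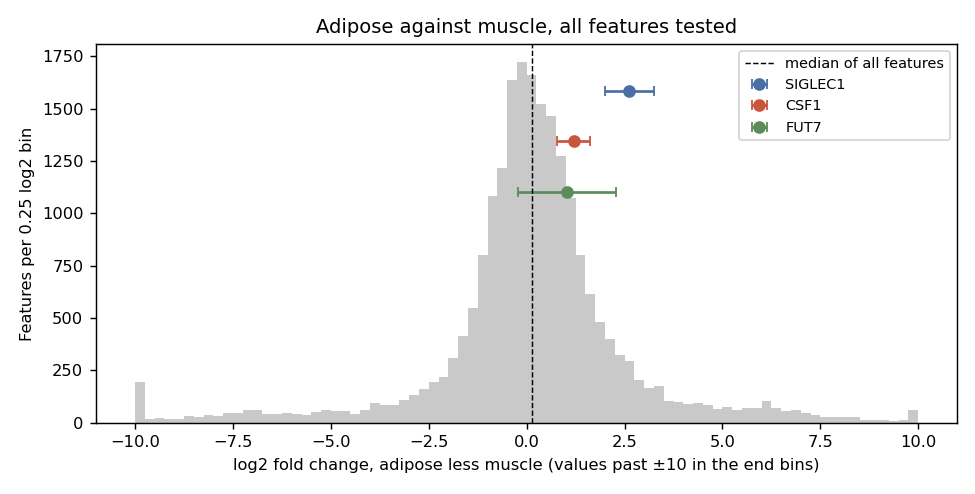
Difference between adipose tissue and muscle in log2 (x axis) for SIGLEC1, CSF1 and FUT7, drawn over the distribution of the same difference in all 21849 features tested. SIGLEC1 lies above 90.3% of the features, CSF1 above 76.9% and FUT7 above 73.4%.

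SIGLEC1 and CSF1 were higher in adipose tissue than in muscle, in a contrast that includes the muscle libraries by which they were chosen. Across both tissues, 21849 features were tested with edgeR's quasi-likelihood test over the 16 libraries at an FDR of 0.05, and 35.5% of them were higher in adipose tissue, so a call in this direction is common. SIGLEC1 was 6.16-fold higher in adipose tissue (log2 difference 2.62, SE 0.30, 95% interval 2.0 to 3.25, FDR 2.6e-07). On the common scale of the 16 libraries its level was 3.26 to 14.1 CPM in adipose tissue and 0.548 to 3.57 CPM in muscle. The tissues did not overlap within CON or within 5-HTP. Permuting the tissue labels within each treatment gave p = 0.000408 in an exact two-sided test, the smallest that the 4900 arrangements can give. Both this test and the fit took the libraries as unpaired. If the library numbers are taken to mark the calf, an exact sign-flip test over 8 numbers gave p = 0.00781 for SIGLEC1 and for CSF1, the smallest it can give, with adipose tissue higher for 8 of 8 numbers.

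The growth factor gene CSF1 was 2.30-fold higher in adipose tissue (log2 difference 1.2, SE 0.20, 95% interval 0.79 to 1.62, FDR 2.97e-05), with p = 0.000816 by the exact permutation test. Its levels were 17.1 to 51.8 CPM in adipose tissue and 7.33 to 28.8 CPM in muscle, and the tissues overlapped in CON but not in 5-HTP. For FUT7 the log2 difference was 1.03 (SE 0.59, 95% interval -0.21 to 2.27, FDR 0.133), which did not pass the FDR. Of the 16 libraries, FUT7 reached 10 counts only in the 4 CON libraries of adipose tissue. Through these it entered the fit, and they are also the libraries whose level chose it, so its difference between tissues is a description. Its unadjusted p by exact permutation was 0.0396 with the libraries unpaired and 0.0859 by sign flip over the library numbers, so it lay on either side of 0.05, and nothing is read from it. The median of all features was shifted by 0.15 toward adipose tissue on this scale. Relative to it the differences were 2.48 for SIGLEC1, 1.06 for CSF1 and 0.89 for FUT7.

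The fold between tissues was also taken within each treatment. SIGLEC1 was 3.99-fold higher in adipose tissue within CON (9.74 against 2.44 CPM) and 9.58-fold within 5-HTP (8.23 against 0.859 CPM). CSF1 was 2.01-fold higher within CON (41.6 against 20.7 CPM) and 2.64-fold within 5-HTP (28.3 against 10.8 CPM). FUT7 was 3.53-fold higher within CON (0.969 against 0.274 CPM) and 1.10-fold within 5-HTP (0.174 against 0.158 CPM), where both tissues were near the level of a few counts. These pairs of folds restate the treatment differences from the side of the tissue and carry no test.

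On the common scale, the order of the 4 group means for SIGLEC1 and for CSF1 ran from adipose tissue of CON, through adipose tissue of 5-HTP and muscle of CON, to muscle of 5-HTP. For both genes, adipose tissue of CON overlapped with adipose tissue of 5-HTP, and adipose tissue of 5-HTP overlapped with muscle of CON. For SIGLEC1 that second overlap came from 5-HTP library 8 of adipose tissue alone, at 3.26 CPM, against 3.57 CPM in CON library 2 of muscle. For FUT7 adipose tissue of CON came first, followed by muscle of CON, adipose tissue of 5-HTP and muscle of 5-HTP, and each neighbour in this order overlapped with the next.

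Muscle can carry fat between its fibres or from dissection, and SIGLEC1 and CSF1 were higher in adipose tissue, so features abundant in adipose tissue were summed in the muscle libraries. A sum of 57 features, taken from these data as those at 100 CPM or more in adipose tissue and at least 20 times their level in muscle, was 0.0260 to 0.0389% of the counts in CON muscle and 0.0236 to 0.0297% in 5-HTP muscle. In adipose tissue it was 4.05 to 4.87%. The highest muscle share was thus 0.961% of the adipose share. At that share the highest adipose library would bring 0.209 CPM of SIGLEC1 and 0.703 CPM of CSF1, by library total, into a muscle library. The lowest muscle values by library total were 1.13 CPM in CON and 0.346 CPM in 5-HTP for SIGLEC1, and 10.9 and 4.63 CPM for CSF1. The features were picked for a low level in muscle, so a low share there was built into the list. The part of carried-over fat in the muscle values was not tested.

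C1QB, a chain of the complement protein C1q that macrophages make, was the 1 matched gene of the macrophage list. In adipose tissue C1QB held 71.8, 58.8, 67.3 and 74.4 CPM in CON and 72.1, 54.7, 40.9 and 14.5 CPM in 5-HTP. Library 8 was the lowest for C1QB as it was for SIGLEC1. In muscle C1QB held 17.1, 9.09, 4.63 and 5.26 CPM in CON and 1.91, 4.60, 2.15 and 3.48 CPM in 5-HTP. The groups did not overlap, but 4.63 in CON and 4.60 in 5-HTP nearly met. C1QB was itself selected on this muscle contrast, and 1.37% of the muscle features had all 4 values in 5-HTP below all 4 in CON. Nothing is read from its separation.

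**Figure D4:**
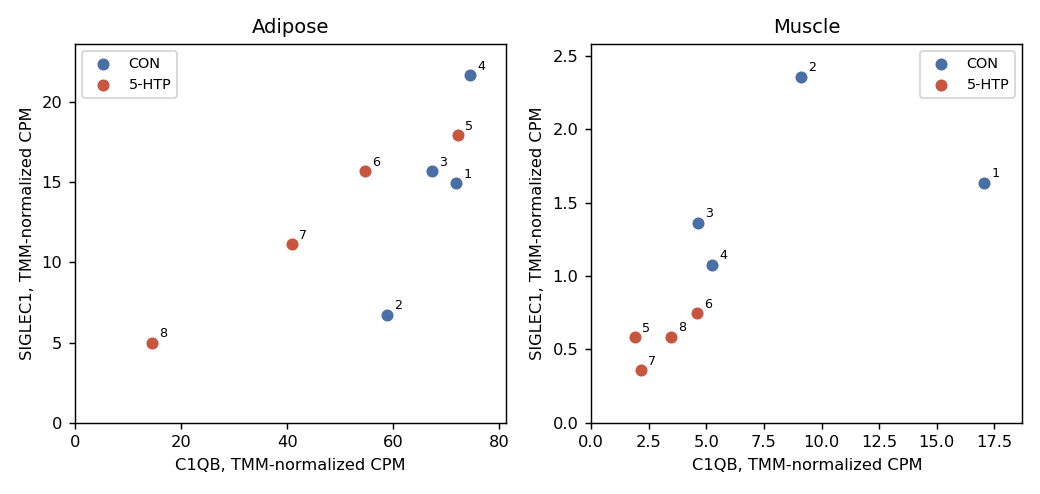
Level of C1QB (x axis) and of SIGLEC1 (y axis) in TMM-normalized CPM for the 8 adipose and the 8 muscle libraries, with the library number beside each point. In adipose tissue 5-HTP library 8 was lowest on both axes. Pearson's r was 0.835 in adipose tissue and 0.571 in muscle. Both were taken over deviations of the log values from the group means, as given in the text, and not over the plotted values.

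In adipose tissue, SIGLEC1 and C1QB were related within groups by Pearson's r after adjustment, but not by Spearman's rho. Over the deviations of log2(CPM + 0.5) from the group means (n = 8), Pearson's r was 0.835, with p = 0.00347 by exact permutation within groups and 0.0208 after Benjamini-Hochberg adjustment over 6 relations. Spearman's rho was 0.905, with an exact permutation p of 0.0174 and 0.104 after adjustment. Without the 2 libraries farthest from the median of SIGLEC1, r was 0.677. In muscle r was 0.571 (exact permutation p = 0.240, adjusted 0.359) and rho was 0.714 (p = 0.111, adjusted 0.222, also by exact permutation).

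Of the other 4 relations, those of SIGLEC1 with CSF1 did not pass after adjustment. Those with FUT7 are descriptions, though they were counted among the 6 relations of the adjustment. SIGLEC1 and CSF1 gave r = -0.283 in adipose tissue (rho 0, exact permutation p = 0.557 and 1) and 0.527 in muscle (rho 0.690, exact permutation p = 0.205 and 0.0868). Without 2 libraries these became 0.683 and 0.898, so the sign in adipose tissue rests on those libraries. FUT7 had only 3 to 8 counts per 5-HTP library of adipose tissue, with a spread under that of counting alone. Nothing is read from its relations. SIGLEC1 and FUT7 gave r = 0.0323 in adipose tissue (rho 0.143), and 0.320 without 2 libraries. CSF1 and FUT7 gave r = 0.593 (rho 0.357), which became -0.163 without 2 libraries and so rests on them.

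The 4 complement genes were themselves selected on the muscle contrast, where their logFC was -1.57 for C1QB, -1.34 for C1S, a protease of the first complement component, -1.38 for CFD, and -2.02 for CR2, a complement receptor of B cells and follicular dendritic cells. In adipose tissue, which did not choose them, 0 of the 4 passed an FDR of 0.20 by edgeR's likelihood ratio test. Their logFC there was -0.58 for C1QB, -0.16 for C1S, -1.07 for CFD (FDR 0.767) and -0.80 for CR2. At an unadjusted p under 0.05, 1 of the 4 (CFD) passed, against 4.41% of the 20167 features, and with 4 genes nothing is read from that count. These 4 genes were thus lower on average in the same muscle libraries as SIGLEC1 and CSF1. The part that the number of macrophages or other leukocytes has in those values was not tested.

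The features most like each gene were ranked by Pearson's r of the same deviations, as a description. Only 24 of the features compared for SIGLEC1 and for CSF1 had a symbol, and 26 of those for FUT7. All of these came from the study's lists of genes that differed with treatment. For SIGLEC1, over 16 libraries and 14459 features, the nearest genes with a symbol were AOC1, diamine oxidase (r = 0.885, rank 9), CR2 (0.843, rank 35) and MRXA5 (0.748, rank 240). For CSF1 they were CFD (0.498, rank 804), C1S (0.470) and IFI47 (0.467), a much weaker likeness. For FUT7, over the 8 adipose libraries and 18871 features, they were CLSTN3 (0.866, rank 65), CSF1 (0.593, rank 1097) and C1S (0.515). Features without a symbol came nearer. The nearest 2 were ENSBTAG00000019338 (0.939) and ENSBTAG00000037907 (0.926) for SIGLEC1, and XLOC_005521 (0.887) and ENSBTAG00000020382 (0.877) for CSF1. For FUT7 they were XLOC_027096 (0.974) and ENSBTAG00000038650 (0.968), where XLOC marks a merged locus with no Ensembl identifier. The libraries and their depth are shared by all these points.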

How the data were processed

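RNA from 8 adipose and 8 muscle samples was sequenced. The authors checked reads with FastQC 0.11.7, trimmed them with Trim Galore 0.4.4, aligned the trimmed reads to ARS-UCD1.2 by HISAT2, built and merged transcripts with Cufflinks 2.2.1 and counted reads per gene with HTSeq. The deposited values are raw counts per feature. Libraries of a group differed beyond sampling noise, as the smallest chi-square per degree of freedom between any pair was 21.8.

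Groups came from the labels. Models were fitted to the counts with edgeR 4.0.16 under R 4.3.3 (TMM, features reaching 10 counts in 4 or more libraries, Benjamini-Hochberg over all features). The likelihood ratio test compared treatments within a tissue (FDR 0.20) and the quasi-likelihood test compared tissues (FDR 0.05). Within a tissue, p-values measure the spread between calves. Between tissues, the quasi-likelihood test and the label permutation took the 16 libraries as unpaired, though the same 8 calves gave both tissues. Their p-values measure the spread between libraries. FUT7 in muscle did not pass the filter and was fitted with no filter. A sign-flip test over calves had been planned for the tissues, but the labels do not say that a number marks a calf, so tissue labels were also permuted within treatments, and both values are given. Alternatives were DESeq2 1.42.0, RLE, no filter, the quasi-likelihood test, a replicate block and leaving out libraries. Scaling by library totals only, and FUT7 fits without a library and without the filter, were added after seeing the data. The steps were tested on simulated data.

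The genes and lists were chosen with earlier results of these data known. Named were the 3 genes, list genes with an identifier and, for each of the 3, the 3 nearest features with a symbol and the nearest 2 without one. Symbols came from the study's supplementary tables of genes that differed with treatment, for 31 features, and the RefSeq table for ARS-UCD2.0 held Ensembl identifiers for 0 genes.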

Additional observations from a re-analysis of the deposited data

How the results depend on the processing

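SIGLEC1 and CSF1 in muscle and FUT7 in adipose tissue kept a logFC below 0 in every alternative tried, and their FDR crossed 0.20 as given above, with no test since these contrasts chose them. SIGLEC1 in adipose tissue ranged from -0.489 to 0.0123 over the fits without 1 library. The upper value came without 5-HTP library 8, and 0 of its alternatives passed. FUT7 in muscle ranged from -1.89 to -0.361 over such fits, and DESeq2 gave it no adjusted p.

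Between tissues, SIGLEC1 and CSF1 passed in all 15 alternatives each. FUT7 passed in 2 of 19: its log2 difference was 2.23 (FDR 0.00168) with library totals only, and ranged from 0.737 to 1.67 without 1 library, with 1.65 (FDR 0.0388) without the libraries numbered 7. Library totals shift the median of all features to 1.33. Relative to it SIGLEC1 was at 2.49, CSF1 at 1.08 and FUT7 at 0.90. With the library number as a replicate block, the differences were 2.52 for SIGLEC1, 1.18 for CSF1 and 1.34 for FUT7. The calls of SIGLEC1 and CSF1 did not change. Deviations of same-numbered libraries correlated at -0.220 to 0.276 over 14460 loci, over 0.1 for 6 of 8 numbers, and 6 of 8 correlated best with their own number, which is a hint from the data only. Leaving out a CON library takes FUT7 under the filter, so those fits had no filter. Depth limits FUT7 in muscle and in 5-HTP adipose tissue.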
